A study of Rattus norvegicus with 6 samples.

Results

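The 50 genes described here encode the machinery that copies DNA in S phase, from the proteins that load the helicase at origins to the cyclins and E2F factors that start the phase. They were picked by gene symbol, as known licensing, replication fork, nucleotide supply and S phase genes, from a table of read counts with 26195 named rows. All 50 were found, in 51 rows, because Cdc45 has a second row. All 50 passed the filter on low counts and were among the 13139 genes tested. RNA-seq was run on bulk tissue of 6 mammary tumors of F344 rats, with 1 library for each. Tumors 102, 107 and 116 came from older rats, and the younger group was made up of tumors 157, 158 and 167. Rats of both ages carried a 50 mg pellet of medroxyprogesterone acetate (MPA, a progestin) made to release over 90 days, and received 1 oral gavage of the carcinogen DMBA at 65 mg per kg. The older rats were 21 to 23 months old at DMBA and the younger rats 4 months old. The younger tumors were all the carcinomas that formed in their cohort, whereas the older ones were those with enough tissue. The question was whether the replication genes differ between tumors of older and younger rats, with and without tumor 102.

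Replication starts with licensing. The origin recognition complex, with Cdc6 and Cdt1, loads the MCM2 to MCM7 ring on DNA in G1, and in S phase the Cdc7-Dbf4 kinase, Cdc45 and the GINS complex turn the ring into a moving helicase. Polymerases, the sliding clamp PCNA and its loader then copy both strands, while ribonucleotide reductase and thymidylate synthase supply the nucleotides. Many of these genes are driven by E2F factors, which the retinoblastoma protein holds back until cyclin E and its kinase release them, so their transcripts are widely read as a sign of cycling cells.

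The letters that E2F factors are known to bind can be seen in the promoters of several members. RefSeq (assembly GRCr8) gave a promoter window for 41 of the 50 genes, and the 250 bases before each start were searched on both strands for TTTGGCGC, TTTCCCGC, TTTCGCGC and TTTGCCGC, forms that can overlap each other. A match was found in 8 of the 41 genes (19.5%), against 3.35% of the 10214 tested genes with a window and 1.81% of all 27457 genes with a window. These 8 were Mcm2, Mcm5, Mcm6, Mcm7, Gins1, Gins3, Pola1 and Tyms. In them the nearest match lay between 8 and 172 bases before the start, with a median of 36.5. The MCM helicase genes held 4 of the 8, among 6 with a window. A match is a run of letters and not a measured site, and no match says only that these letters are not in this window. For 6 of the 8 genes with a match, the 60 bases around the match nearest the start are shown, since they are the letters counted here. Capitals mark the matching letters, and each sequence is read 5′ to 3′ on the strand of the gene, in GRCr8. The stretch ends 1 base before the start in Mcm2, Mcm5 and Gins1, 4 bases before it in Tyms, 19 in Mcm7 and 102 in Mcm6.
Mcm2, chr4:122918095-122918154, minus strand: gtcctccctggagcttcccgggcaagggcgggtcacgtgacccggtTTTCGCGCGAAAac
Mcm5, chr19:13488753-13488812, plus strand: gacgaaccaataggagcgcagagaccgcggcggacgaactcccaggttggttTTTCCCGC
Mcm6, chr13:42404454-42404513, minus strand: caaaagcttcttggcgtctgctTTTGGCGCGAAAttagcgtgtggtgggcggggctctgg
Mcm7, chr12:22163197-22163256, minus strand: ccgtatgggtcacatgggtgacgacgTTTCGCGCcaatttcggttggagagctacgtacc
Gins1, chr3:160184860-160184919, plus strand: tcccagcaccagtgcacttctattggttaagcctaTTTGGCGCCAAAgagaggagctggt
Tyms, chr9:120776087-120776146, minus strand: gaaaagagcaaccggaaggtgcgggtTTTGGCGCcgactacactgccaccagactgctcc
In Mcm2, Mcm6 and Gins1 matches on both strands overlap, of the same form in Mcm2 and Gins1 and of different forms in Mcm6. Mcm5 and Mcm7 have further matches outside the stretch shown.

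The libraries held between 3508571 counts (tumor 102) and 6525830 counts (tumor 158). Levels are given as CPM, which are counts scaled to a common library size with edgeR's TMM factors, and 3 counts correspond to between 0.53 and 1.03 CPM. The 50 genes together took 2705 counts in tumor 102 (0.0797% of the counts with a gene name), 8313 in tumor 107 (0.18%), 12064 in tumor 116 (0.271%), 12364 in tumor 157 (0.241%), 9738 in tumor 158 (0.153%) and 5865 in tumor 167 (0.162%). No member was at 0 counts in any tumor, and the smallest count was 1. The tumors were labelled as mammary, and the 9 luminal epithelial markers tested (Epcam, Krt8 and others) had a mean log2 CPM between 6.75 and 7.55 in all 6 tumors. Tumor 102 stood apart over all genes, as it was the lowest of the 6 tumors in 27.3% of all tested genes and the highest in 25.7%. As planned with earlier results of these data known, the fold change of each gene is also given without tumor 102, for some genes as a range. Gene lengths were not used, so levels are compared between tumors and not between genes.

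Tumors of older and younger rats did not differ detectably in any of the 50 genes. In edgeR's quasi-likelihood test 0 of the 50 had an adjusted p under 0.05 (background 0% of 13139 genes), and 0 of the 50 had an unadjusted p under 0.05 (background 8.59%). DESeq2 and limma-voom also called 0 of the 50, and neither gave any of them an unadjusted p under 0.05, although DESeq2 called 326 of all genes. By sign alone 24 genes were higher and 26 lower in older tumors. The median log2 fold change of the 50, older against younger, was -0.01 (median of all tested genes -0.0039), with a range from -0.80 (Rrm2) to 0.56 (Rpa3). The age groups did not overlap in 2 of the 50 genes, Orc2 and Rfc1 (4%, background 12.1%), both with the older tumors above. The p-values set the difference between the ages against the spread between tumors of the same age, each from its own rat.

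The median depended on which tumors entered. Without tumor 102, 43 of the 50 genes were higher and 7 lower in older tumors, the median log2 fold change was 0.29 and the range was from -0.39 to 0.88. In edgeR 0 of the 50 were then called (background 0%), and the smallest adjusted p was 0.661. The gene Prim2 alone had an unadjusted p under 0.05 in that fit (background 7.28%). Leaving out tumor 116 moved the genes the other way, to 10 higher and 40 lower with a median of -0.49. Leaving out tumor 157 gave a median of 0.15. In bulk tissue fewer cycling cells and less RNA of these genes per cell cannot be told apart.

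**Figure D1:**
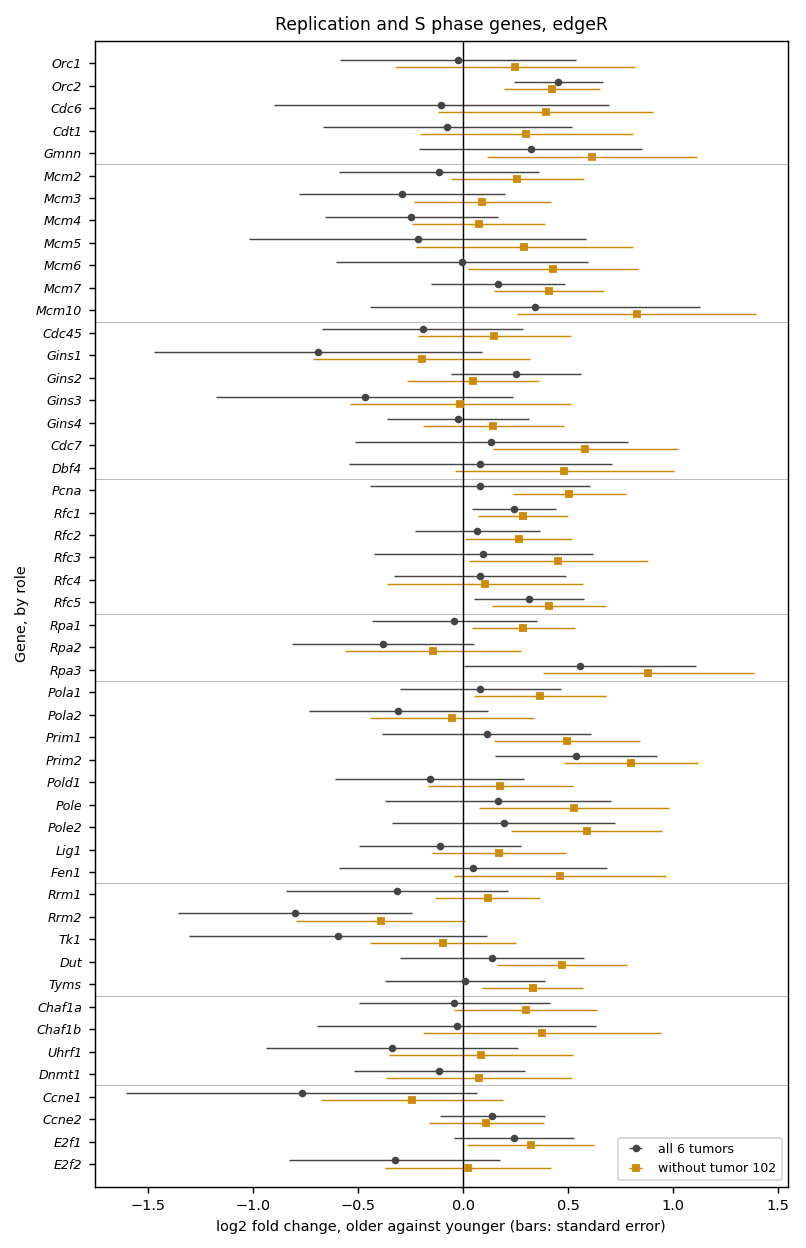
Log2 fold change of each of the 50 genes, older against younger tumors (x axis), by gene and role (y axis), from edgeR with all 6 tumors (circles) and without tumor 102 (squares); bars are standard errors. With all tumors the points lie on both sides of 0, 24 to the right and 26 to the left, and without tumor 102 there are 43 to the right.

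Of the 5 genes for origin recognition and loading, Orc2 was the most even. Orc2, a core subunit of the origin recognition complex, was at 65.8, 63.9 and 61.9 CPM in the older tumors 102, 107 and 116 and at 42.1, 47.9 and 49.9 CPM in the younger tumors 157, 158 and 167. The groups did not overlap, and tumor 102 was here the highest of all. The means were 63.8 ± 1.94 and 46.6 ± 4.06 CPM (SD, n = 3 each), a log2 fold change of 0.45 (SE 0.21, adjusted p = 0.632, edgeR), which was the smallest p of the 50 genes, and 0.43 without tumor 102. The other 4 overlapped between the ages. Cdc6, which loads the MCM ring, was at 1.38 CPM in tumor 102 and at 15.9 and 18.0 CPM in tumors 107 and 116, and among younger tumors it was at 16.97 and 15.9 CPM in tumors 157 and 158 but at 5.43 CPM in tumor 167. Cdt1, its partner in loading, had the same low pair, with 7.23 CPM in tumor 102 and 8.39 CPM in tumor 167 and between 24.6 and 28.8 CPM in the other 4. Their log2 fold changes were -0.10 for Cdc6 and -0.07 for Cdt1 with all tumors and 0.39 and 0.30 without tumor 102. Orc1, the subunit that comes and goes with the cell cycle, had a log2 fold change of -0.03 and Gmnn, the inhibitor of Cdt1, one of 0.32, or 0.25 and 0.62 without tumor 102.

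The 6 subunits of the MCM ring moved together across tumors, and tumor 102 was the lowest in each of them. Mcm2 was at 24.1, 85.5 and 76.3 CPM in older tumors and at 86.6, 70.4 and 44.7 CPM in younger ones. Mcm3 was at 16.2, 57.3 and 58.3 CPM against 67.2, 59.5 and 35.05 CPM. Mcm4 was at 39.25, 81.1 and 121 CPM against 123, 91.9 and 72.3 CPM. In all 3 subunits tumors 107 and 116 lay within the younger range, and tumor 167 was the lowest of the younger tumors. Mcm5 was at 5.85, 55.9 and 75.7 CPM in older tumors and at 80.8, 57.9 and 21.7 CPM in younger ones. Mcm6 was at 15.8, 70.5 and 86.5 CPM against 79.7, 63.1 and 31.1 CPM. Mcm7 was at 66.8, 121 and 134 CPM against 121.5, 84.1 and 81.5 CPM. The older tumors thus spanned the younger ones in Mcm6 and Mcm7, and the ages overlapped in all 6 subunits.

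The size of the gap differed between the subunits. Tumor 116 was 12.9-fold above tumor 102 in Mcm5 and 2.0-fold in Mcm7, with the other 4 subunits between 3.08-fold and 5.46-fold. Mean levels in older and younger tumors were 62.0 ± 33.1 and 67.2 ± 21.1 CPM for Mcm2, and 107.3 ± 35.6 and 95.7 ± 22.4 CPM for Mcm7 (SD, n = 3 each). The log2 fold changes of Mcm2 to Mcm7 ran from -0.29 (Mcm3, SE 0.49) to 0.17 (Mcm7, SE 0.32), with adjusted p between 0.938 and 0.999 (edgeR). Without tumor 102 they ran from 0.08 (Mcm4) to 0.43 (Mcm6). Mcm10, a helicase partner outside the ring, was at 1.72 CPM in tumor 102 and 21.4 CPM in tumor 116, and its log2 fold change of 0.34 was the highest of the 7 genes in this role, as was its 0.83 without tumor 102.

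**Figure D2:**
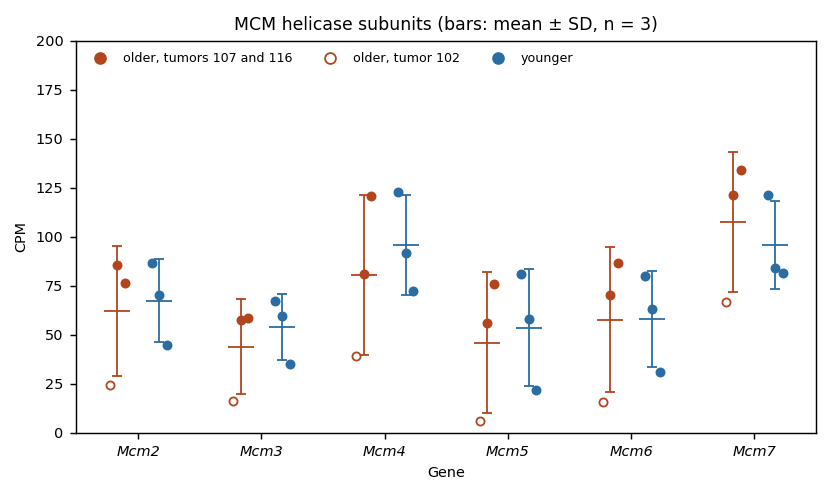
CPM (y axis) of the 6 subunits of the MCM ring (x axis) in each tumor, with the mean and SD of each age group (n = 3). The open circle of tumor 102 is the lowest of the 6 points in every subunit, and the other older tumors lie within or close to the younger range.

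Among the genes that activate the helicase, the GINS subunits Gins1, Gins3 and Gins4 had tumor 102 as the lowest tumor, whereas Gins2 had it as the highest. Gins2 was at 57.8, 50.9 and 29.0 CPM in older tumors and at 40.1, 41.8 and 33.3 CPM in younger ones. It ran opposite to the other members, with tumor 102 the highest of the 6 and tumor 116 the lowest, and its log2 fold change was 0.25 (SE 0.31, adjusted p = 0.91, edgeR), or 0.05 without tumor 102. Gins1 was at 0.344, 3.64 and 7.41 CPM in older tumors and at 8.31, 5.97 and 4.69 CPM in younger ones. The value of tumor 102 was 1 count (95% exact Poisson interval 0.00872 to 1.92 CPM, counting error only), and its upper end lies below every other tumor. The log2 fold change of Gins1 was -0.69 (SE 0.78, adjusted p = 0.902, edgeR), or -0.20 without tumor 102. Gins3, with 3 counts in tumor 102 (95% exact Poisson interval 0.213 to 3.02 CPM), had a log2 fold change of -0.47, or -0.01 without tumor 102. Gins4 was among the even genes, at 10.3 to 19.0 CPM over the 6 tumors, with a log2 fold change of -0.02, or 0.14 without tumor 102.

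The kinase that fires origins showed the gap between tumors 102 and 116 clearly. Cdc7, its catalytic subunit, was at 2.41, 8.64 and 19.8 CPM in the older tumors and between 8.68 and 10.4 CPM in the younger ones. Dbf4, its activator, was at 3.79, 9.09 and 20.8 CPM in the older tumors and between 6.88 and 15.9 CPM in the younger ones. In both genes the younger tumors lay between tumors 102 and 116, and the log2 fold changes were 0.13 for Cdc7 and 0.08 for Dbf4, or 0.58 and 0.48 without tumor 102. Cdc45, which joins GINS and MCM in the active helicase, was at 4.13, 9.77 and 14.6 CPM in older tumors and at 12.6, 10.5 and 9.87 CPM in younger ones (log2 fold change -0.19, or 0.15 without tumor 102). A second row with the symbol Cdc45 held between 1 and 10 counts per tumor and was not tested.

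All 6 genes of the clamp and its loader had a positive sign, and none was called. Pcna, the sliding clamp that tethers the polymerases, was at 27.2, 95.9 and 151 CPM in older tumors and at 93.4, 79.2 and 87.4 CPM in younger ones. The older tumors lay on both sides of the narrow younger range, with means of 91.3 ± 61.9 and 86.7 ± 7.08 CPM (SD, n = 3 each) and a log2 fold change of 0.08 (SE 0.52, adjusted p = 0.985, edgeR). Without tumor 102 it was 0.51. Rfc1, the large subunit of the clamp loader, was at 74.4, 81.8 and 83.3 CPM in older tumors and at 63.5, 69.3 and 69.9 CPM in younger ones. Its groups did not overlap, but the difference was small, with a log2 fold change of 0.24 (SE 0.20, adjusted p = 0.85, edgeR), or 0.28 without tumor 102. The smaller loader subunits Rfc2, Rfc3, Rfc4 and Rfc5 had log2 fold changes between 0.07 and 0.31, or between 0.11 and 0.45 without tumor 102, and overlapped between the ages. In Rfc4 the lowest tumor was tumor 107, at 8.86 CPM, and the highest was tumor 116, at 24.03 CPM.

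The 3 subunits of replication protein A, which coats single-stranded DNA, differed in pattern. Rpa1, the large subunit, was at 16.9, 40.2 and 50.7 CPM in older tumors and at 40.1, 34.6 and 36.8 CPM in younger ones. Tumor 102 was apart from the other 5, and the log2 fold change was -0.04 (SE 0.39, adjusted p = 0.99, edgeR), or 0.29 without tumor 102. Rpa3, the small subunit, was at 4.48, 11.1 and 13.02 CPM in older tumors and at 4.24, 4.89 and 10.6 CPM in younger ones. Each age held both low and high tumors, and its log2 fold change of 0.56 (SE 0.55, adjusted p = 0.882, edgeR) was the highest of the 50 genes without being called, as was its 0.88 without tumor 102. Rpa2 had a log2 fold change of -0.38, or -0.14 without tumor 102.

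Tumor 102 was the lowest tumor in 8 of the 9 genes for polymerases, primase and strand joining, and tumor 116 was the highest in 8. Lig1, the ligase that seals lagging strand fragments, was at 33.7, 60.2 and 88.1 CPM in older tumors and at 84.9, 63.1 and 48.9 CPM in younger ones. The older tumors covered the whole younger range, with means of 60.7 ± 27.2 and 65.6 ± 18.1 CPM (SD, n = 3 each) and a log2 fold change of -0.11 (SE 0.38, adjusted p = 0.975, edgeR), or 0.17 without tumor 102. Prim2, the large subunit of the primase, was at 10.7, 20.5 and 23.8 CPM in older tumors and at 15.0, 13.03 and 9.87 CPM in younger ones. Tumors 107 and 116 were above every younger tumor while tumor 102 was not, and the log2 fold change of 0.54 (SE 0.38, adjusted p = 0.814, edgeR) became 0.80 without tumor 102 (adjusted p = 0.661, edgeR).

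The other genes of this role overlapped between the ages. Pole, the catalytic subunit of the leading strand polymerase, was at 21.4 CPM in tumor 102 and at 21.5 CPM in the younger tumor 167, with the other 4 tumors between 53.2 and 72.7 CPM. Prim1, the catalytic primase subunit, was at 17.9, 40.7 and 83.1 CPM in the older tumors and between 37.3 and 49.7 CPM in the younger ones. The log2 fold changes of these genes were 0.08 for Pola1 and -0.31 for Pola2, both of polymerase alpha, 0.11 for Prim1, -0.16 for Pold1, 0.17 for Pole, 0.19 for Pole2 and 0.05 for Fen1, the flap nuclease. Without tumor 102 they ran from -0.05 (Pola2) to 0.59 (Pole2).

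The lowest fold change of the 50 genes was that of Rrm2, in nucleotide supply. Rrm2, the regulated small subunit of ribonucleotide reductase, was at 8.61, 25.5 and 45.5 CPM in older tumors and at 64.9, 42.2 and 32.3 CPM in younger ones. Tumors 102 and 107 were below every younger tumor while tumor 116 lay among them. The means were 26.5 ± 18.4 and 46.5 ± 16.7 CPM (SD, n = 3 each), a log2 fold change of -0.80 (SE 0.56, adjusted p = 0.807, edgeR), or -0.39 without tumor 102. Rrm1, the large subunit, was at 23.4, 98.0 and 125 CPM in older tumors and at 121.5, 91.2 and 95.5 CPM in younger ones. Here tumor 102 alone fell outside the range of the others by a wide margin, and the log2 fold change was -0.32 (SE 0.53, adjusted p = 0.938, edgeR), or 0.12 without tumor 102. Tk1, the thymidine kinase of S phase, was at 4.13 CPM in tumor 102 and between 31.6 and 59.2 CPM in the other 5, and its log2 fold change moved from -0.60 to -0.10 when tumor 102 was left out. Tyms, thymidylate synthase, had a log2 fold change of 0.01 and Dut, which removes dUTP, one of 0.14, or 0.33 and 0.47 without tumor 102.

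The genes that rebuild chromatin and methylation behind the fork had tumor 157 at the top and tumor 167 at the bottom of the younger range. Uhrf1, which brings the maintenance methyltransferase to new DNA, was at 16.2, 72.5 and 73.9 CPM in older tumors and at 109, 59.5 and 37.3 CPM in younger ones. Dnmt1, that methyltransferase, was at 89.5, 135 and 153 CPM in older tumors and at 187, 156 and 65.2 CPM in younger ones. The younger tumors spanned all the older ones in Dnmt1, where tumor 167 and not tumor 102 was the lowest. The log2 fold changes were -0.34 for Uhrf1 (SE 0.60, adjusted p = 0.941, edgeR) and -0.11 for Dnmt1 (SE 0.41, adjusted p = 0.975, edgeR). Chaf1a and Chaf1b, subunits of the histone chaperone CAF-1, had log2 fold changes of -0.04 and -0.03. All 4 genes had a negative sign with all tumors and a positive sign without tumor 102, when they ran from 0.07 (Dnmt1) to 0.38 (Chaf1b).

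In the control of the G1 to S step the 2 E-type cyclins differed. Ccne2 was at 44.4, 36.6 and 47.7 CPM in older tumors and at 34.8, 35.1 and 46.9 CPM in younger ones. It was even, within 1.37-fold over the 6 tumors, with a log2 fold change of 0.14 (SE 0.25, adjusted p = 0.941, edgeR), or 0.11 without tumor 102. Ccne1 was at 0.344, 7.50 and 12.6 CPM in older tumors and at 15.7, 11.04 and 8.89 CPM in younger ones. The value of tumor 102 was again 1 count (95% exact Poisson interval 0.00872 to 1.92 CPM), below the other 5 tumors by more than counting error. Its log2 fold change of -0.77 (SE 0.84, adjusted p = 0.9, edgeR) became -0.24 without tumor 102. E2f1, an activator of S phase genes, was even at 16.1 to 26.6 CPM (log2 fold change 0.24, or 0.32 without tumor 102), whereas its relative E2f2 was at 4.48 CPM in tumor 102 and between 8.50 and 15.9 CPM elsewhere (log2 fold change -0.33, or 0.02 without tumor 102).

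**Figure D3:**
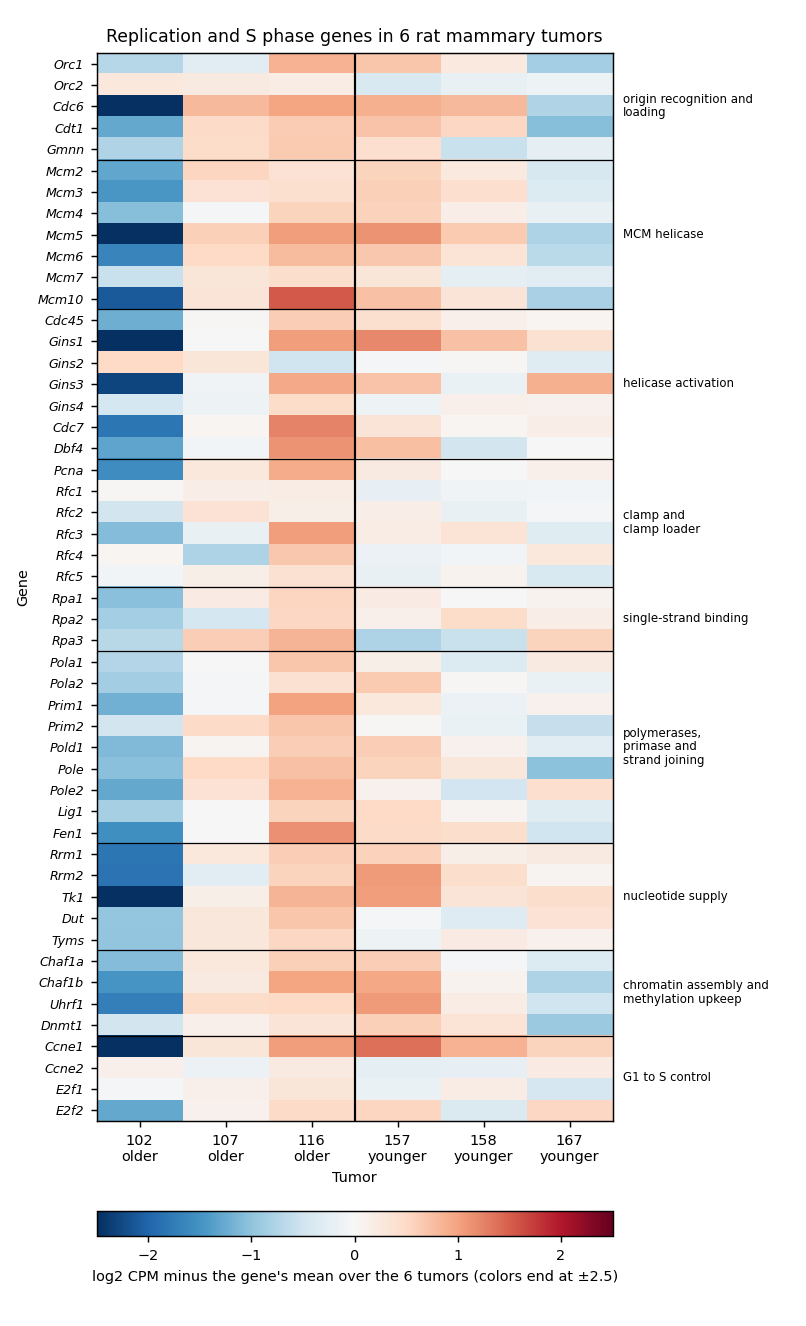
Log2 CPM of the 50 genes (y axis, by role) in the 6 tumors (x axis) as the difference from the gene's mean, blue below and red above. The column of tumor 102 is blue in most rows and that of tumor 116 red in most rows, with Orc2 and Gins2 among the exceptions, and tumor 167 is blue in all 7 MCM helicase genes.

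The largest differences in these genes lay within the older group. Tumor 102 was the lowest of the 6 tumors in 39 of the 50 genes (78%, against 27.3% of all tested genes) and tumor 116 the highest in 33 (66%, against 11.2%). In 25 genes (50%, against 4.89%) both held at once. In these same 25 genes all the younger tumors lay between tumors 102 and 116, which follows from that order (6.11% of all tested genes). The median ratio of tumor 116 to tumor 102 was 3.25 over the 50 genes and 0.996 over all tested genes, and the median ratio of tumor 107 to tumor 102 was 2.39 against 1.01. In 17 genes tumor 102 was more than 2-fold under each of the other 5 tumors, as it was in 6.28% of all tested genes. These shares describe the tumors, and no test was made of them. Tumor 102 had the shallowest library, and the part of depth in them was not tested.

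The spread among the older tumors depended on tumor 102. The SD of log2 CPM was larger among older than among younger tumors in 45 of the 50 genes (90%, against 56.3% of all tested genes), with medians of 0.87 and 0.39 (0.42 and 0.37 over all tested genes). Without tumor 102 it was larger in the remaining 2 older tumors in 23 of the 50 genes (46%, against 38.7%), with a median of 0.30 (0.27 over all tested genes). By role the median ratio of tumor 116 to tumor 102 was highest for helicase activation (5.5) and nucleotide supply (5.28) and lowest for the clamp and its loader (1.54). The genes moved together across tumors: the correlation of a gene with the mean of the other members over the 6 tumors, a description on shared libraries in which tumor 102 weighs heavily, had a median r of 0.907 and was at least 0.8 in 36 genes. Without tumor 102 the median r was 0.731 and 20 genes reached 0.8. With all tumors it was highest for Cdc45 (0.983) and below 0 in Orc2 (-0.37), Ccne2 (-0.25) and Gins2 (-0.70). The median ratio of tumor 116 to tumor 102 was 4.31 in the 8 genes with an E2F-type match, among them the promoters printed above, and 3.4 in the 33 genes with a window and no match. This difference was not tested, and of the 8 genes Gins1 and Gins3 had only 1 and 3 counts in tumor 102.

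**Figure D4:**
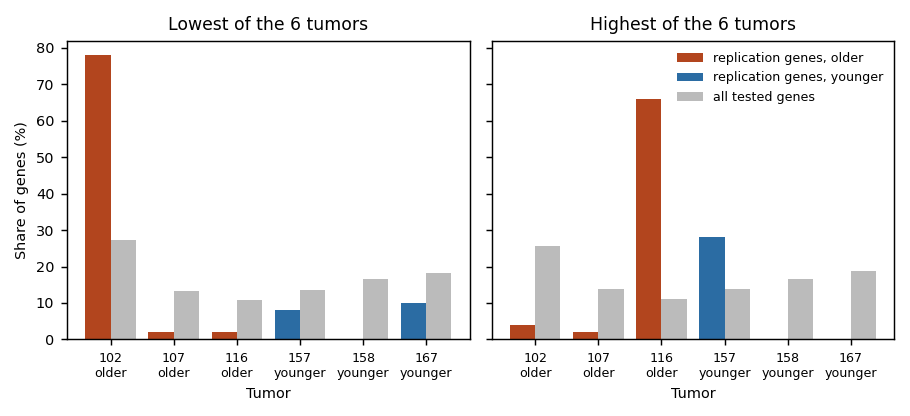
Share of genes (y axis, %) in which each tumor (x axis) was the lowest (left) or the highest (right) of the 6, for the 50 replication genes (colored, by age) and for all tested genes (gray). Tumor 102 was the lowest in 78% of the replication genes and tumor 116 the highest in 66%, while for all tested genes these shares were 27.3% and 11.2%.

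A smaller split ran through the younger tumors. Tumor 157 was the highest of the 3 younger tumors in 34 of the 50 genes (68%, against 29.3% of all tested genes) and tumor 167 the lowest in 28 (56%, against 36.2%). The median ratio of tumor 167 to the mean of tumors 157 and 158 was 0.793 over the 50 genes and 0.99 over all tested genes. The roles with the lowest medians were those of licensing and chromatin, with 0.398 for origin recognition and loading, 0.553 for MCM helicase, where tumor 167 was the lowest younger tumor in 7 of 7 genes, and 0.414 for chromatin assembly and methylation upkeep, where it was so in 4 of 4. The medians were close to 1 for the clamp and its loader (0.997), single-strand binding (0.985) and G1 to S control (1.0), over genes that went both ways, such as Ccne1 (0.664) and Ccne2 (1.34). Mcm5 (0.313), Cdt1 (0.312) and Cdc6 (0.33) were the lowest genes, while Rpa3 (2.33) was the highest. Tumor 167 had the shallowest library of the younger tumors, and the part of depth was not tested.

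None of the further replication genes was called either. A list of 44 further genes of the fork, its checkpoint and nucleotide supply, of which 43 were tested, had 19 higher and 24 lower in older tumors, a median log2 fold change of -0.08 (0.16 without tumor 102) and 0 genes at an adjusted or unadjusted p under 0.05 (edgeR; background 0% and 8.59%). Tumor 102 was the lowest in 24 of the 43 (55.8%, against 27.3% of all tested genes) and tumor 116 the highest in 18 (41.9%, against 11.2%). The age groups did not overlap in 4 genes (9.3%, background 12.1%), which were picked out for that reason. Pold4, an accessory subunit of polymerase delta, and Top1, which relaxes DNA ahead of the fork, were lower in each older tumor than in any younger one, while Topbp1, which helps activate the helicase, and Dck, a nucleoside kinase, were higher. Pold4 had the smallest p of the list (log2 fold change -0.86, adjusted p = 0.605, edgeR).

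Mitosis genes, which act after replication is done, are set beside the replication genes as the nearest group. All 23 tested of 24 (Mki67, Top2a, Cdk1 and others) had a negative sign, with a median log2 fold change of -0.50 and 0 at an adjusted or unadjusted p under 0.05 (edgeR; background 0% and 8.59%). Mki67, the proliferation antigen Ki-67, was at 73.0, 365 and 464 CPM in older tumors and at 573, 385.5 and 333 CPM in younger ones, so that tumor 102 was far below the other 5. Tumor 102 was the lowest in 22 of the 23 genes (95.7%, against 27.3% of all tested genes). Without it, 5 were higher and 18 lower, with a median of -0.05. Tumor 116, the highest tumor in 33 of the 50 replication genes (66%), was the highest in 6 of the 23 mitosis genes (26.1%). Its share over all tested genes was 11.2%, below both. The difference between the lists was not tested.

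Scores, the mean log2 CPM over a list in a tumor, bring these values together and carry no test. The S phase score of the 50 genes was 3.43, 4.69 and 5.17 in tumors 102, 107 and 116 and 4.92, 4.62 and 4.38 in tumors 157, 158 and 167. The older mean was 4.43 ± 0.89 and the younger mean 4.64 ± 0.27 (SD, n = 3 each), a difference of -0.21 that is smaller than the SD of the older tumors and became 0.29 without tumor 102. The mitosis score was 3.44, 5.18 and 5.78 in older tumors and 5.98, 5.16 and 5.46 in younger ones, a difference of -0.73, or -0.05 without tumor 102. Over the 6 tumors the S phase score had r = 0.938 with the mitosis score and r = 0.961 with that of the further replication genes, as a description of shared libraries. Without tumor 102 the first of these was 0.638.

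Markers of other cell types moved with tumor 102, in which the S phase score was lowest. Its fibroblast score (7 genes) was 7.21, against 3.22 and 5.99 in tumors 107 and 116 and 3.501 to 6.14 in younger tumors. Its adipocyte score (4 of 6 genes tested) was 4.71, against 1.47 to 2.44 in the other 5, and its myoepithelial score (6 of 7 tested) was 5.19, against 6.68 to 8.08. Tumor 102 thus held the highest fibroblast and adipocyte scores and the lowest myoepithelial score, while its luminal epithelial score of 7.21 lay within the range of the others. The summed level of the tested adipocyte markers was 181 CPM in tumor 102, of which Fabp4 134.6 CPM. It was 18.9 CPM at the lowest in older tumors and 12.3 to 22.6 CPM in younger ones. Summed fibroblast markers ran from 162 to 1442 CPM in older and from 144 to 1097 CPM in younger tumors. In endothelial cells (6 genes) the score ran from 3.95 to 5.57 in older and from 3.60 to 5.13 in younger tumors. Tumor 102 was again the highest, also in the summed level of these markers (414.5 CPM, of which Pecam1 183.5 CPM). By single genes tumor 102 was the highest in 3 of the 6 endothelial, 4 of the 7 fibroblast and 4 of the 4 tested adipocyte markers (25.7% of all tested genes). Of the adipocyte markers left out by the filter on low counts, Adipoq was highest in tumor 102 (10.7 CPM). Lep went the other way, with 25.0 CPM in tumor 107 and 4.13 CPM in tumor 102. Tumor 167, the lowest younger tumor in S phase score, had the lowest scores of all 6 for adipocytes, endothelial cells and macrophages.

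The mean level of the macrophage markers was higher in older tumors. The macrophage score (8 genes) was 5.04, 5.31 and 4.59 in older tumors and 4.26, 3.89 and 3.58 in younger ones, without overlap. The age groups did not overlap in 3 of the 8 genes, Cd68, Csf1r and Adgre1 (37.5%, background 12.1%), and overlapped in Cd163, Mrc1, C1qa, C1qb and C1qc. All 8 macrophage genes had a positive sign, 4 of them with an unadjusted p under 0.05 and 0 with an adjusted p under 0.05 (edgeR; background 8.59% and 0%). The T cell score, on 2 of 7 genes, and the B and plasma cell score, on 1 of 6, were also higher in each older tumor than in any younger one. The correlation with the S phase score over the 6 tumors was -0.209 for macrophages, 0.026 for luminal epithelial cells and -0.727 for adipocytes. Without tumor 102 these were 0.46, -0.065 and 0.844. The macrophage and adipocyte values thus changed sign, while the luminal epithelial value stayed close to 0. The luminal epithelial score was itself lower in each older tumor (7.21, 6.75 and 7.21) than in any younger one (7.55, 7.29 and 7.48). Its difference between the ages was -0.38. All 9 tested luminal markers had a negative sign, 0 with an unadjusted p under 0.05 (edgeR), and 3 did not overlap (33.3%, background 12.1%). Measured against this luminal score of the same tumor, the S phase difference between the ages was 0.17 in place of -0.21. The part of cell composition in the S phase values was not tested.

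**Figure D5:**
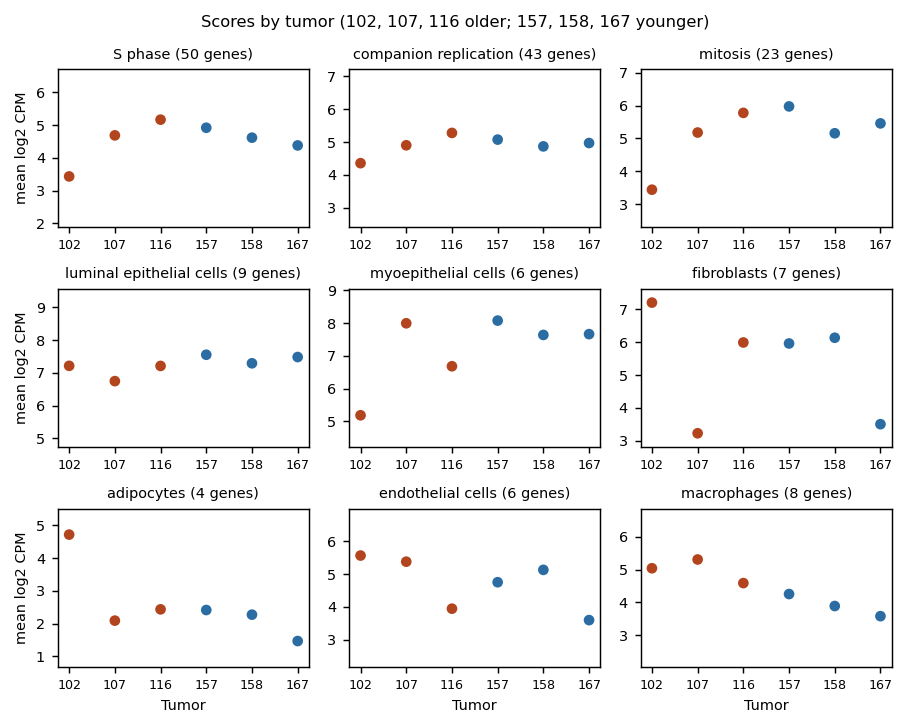
Mean log2 CPM (y axis) of each gene list in the 6 tumors (x axis), older tumors in brown and younger in blue; all panels span the same number of log2 units. Tumor 102 is the lowest in the S phase, companion replication, mitosis and myoepithelial panels and the highest in the fibroblast, adipocyte and endothelial panels, and the macrophage score of each older tumor is above that of each younger one.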

How the data were processed

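RNA of 6 tumors was sequenced. Per the submitters' processing notes, the authors used FastQC 0.11.7, Trimmomatic 0.38, STAR 2.7.9a, Picard 2.18.12 and HTSeq 0.13.5 on build mRatBN7.2, and the counts per gene were deposited without normalization. The annotation and the strand setting of the counting are not given in the sources used here, so that reads of overlapping or antisense genes may be shared. By the labels the RNA was polyA and read length 100 bases, but the protocol gives ribosomal RNA depletion and 150 bases. Samples were matched by tumor number, and 0 columns were left unused. The column of tumor 102 carried the letters FF after its number, where the others carried a code of letters and digits. What these stand for is not given.

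Of 30562 rows, 4367 carry no gene name. They held 2.17% to 3.64% of the counts and were left out of library sizes and tests. Of Cdc45 the row with more counts was used. Tests were run under R 4.3.3 in edgeR 4.0.16 (filterByExpr by age group, TMM, quasi-likelihood test, Benjamini-Hochberg over 13139 genes, threshold 0.05), limma 3.58.1 and DESeq2 1.42.0, on 3 tumors against 3. Standard errors were calculated back from the F statistic, and scores used log2 CPM with a prior count of 2. The scripts were tested on simulated data. The alternatives were other size factors, tests, filters on low counts and prior counts, leaving out the 10 most abundant genes or each tumor, and, chosen after seeing the data, keeping the unnamed rows and giving the spread and correlation of the members without tumor 102. TMM factors ran from 0.861 to 1.127. Intervals cover counting error only.

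The members, lists and tests were chosen with earlier results of these data known. Values in all 6 tumors were to be given for the gene with the highest mean and that with the smallest p in each role, genes whose age groups do not overlap, Mcm2 to Mcm7, and genes past the threshold; further genes were named after their values were seen. No row carried the symbols Krt19, Krt14, Cd4 or Mylpf used as markers, and the skeletal muscle markers (2 of 5 tested) had scores of 1.45 to 4.07 in older and 1.99 to 3.03 in younger tumors. Promoters come from RefSeq's GRCr8, matched by symbol, and are of another assembly than the counts. Cdc6, Mcm4, E2f2, Rpa3, E2f1, Gins4, Rrm2, Ccne2 and Orc1 had no window.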

Additional observations from a re-analysis of the deposited data

How the results depend on the processing

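With all 6 tumors, other size factors, tests and filters left 0 of the 50 replication genes and 0 of the further replication genes past the threshold in each setting run. Over all genes DESeq2 called 326 (219 higher, 107 lower) where edgeR called 0. Of 391 values of single replication genes under these settings 381 kept the sign. The exceptions were Mcm6 (0.0078) and Tyms (-0.0007) with library totals alone, Tyms (-0.0075) with all genes of at least 1 count, and, with limma-voom, Cdc7 (-0.14), Dbf4 (-0.025), Pcna (-0.19), Rfc3 (-0.049), Prim1 (-0.068), Fen1 (-0.14) and Tyms (-0.072); the cause was not tested. A minimum of 10 counts in every tumor left 41 members. Keeping the unnamed rows, added after seeing the data, changed no sign of a member. The S phase difference relative to the luminal epithelial score was 0.17, where it was -0.21 without that scale. That luminal score was itself lower in each older tumor than in any younger one. Leaving out each tumor in turn, the S phase difference ran from -0.58 to 0.29, the median log2 fold change from -0.49 to 0.29 and the mitosis difference from -1.22 to -0.05, with 0 genes called in each fit by edgeR. The log2 fold change changed sign at least once in 34 of the 50 genes, in 67 of 300 values, with these lowest and highest values: Cdc45 -0.65 to 0.15, Cdc6 -0.54 to 0.39, Cdc7 -0.76 to 0.58, Cdt1 -0.45 to 0.30, Chaf1a -0.39 to 0.30, Chaf1b -0.64 to 0.50, Dbf4 -0.72 to 0.48, Dnmt1 -0.45 to 0.18, Dut -0.23 to 0.47, E2f2 -0.69 to 0.024, Fen1 -0.77 to 0.46, Gins4 -0.32 to 0.14, Lig1 -0.48 to 0.17, Mcm10 -0.62 to 0.83, Mcm2 -0.41 to 0.26, Mcm3 -0.55 to 0.092, Mcm4 -0.67 to 0.076, Mcm5 -0.78 to 0.29, Mcm6 -0.42 to 0.43, Mcm7 -0.028 to 0.41, Orc1 -0.63 to 0.33, Pcna -0.49 to 0.51, Pola1 -0.34 to 0.37, Pold1 -0.59 to 0.18, Pole -0.18 to 0.53, Pole2 -0.28 to 0.59, Prim1 -0.58 to 0.50, Rfc2 -0.12 to 0.26, Rfc3 -0.66 to 0.45, Rfc4 -0.34 to 0.37, Rpa1 -0.38 to 0.29, Rrm1 -0.76 to 0.12, Tyms -0.28 to 0.33, Uhrf1 -0.64 to 0.16. No paired analysis was possible because no replicate number is shared between the ages, each tumor being from its own rat.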

Other observations

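The 250 bases before the start were also searched on both strands for 2 other short runs of letters, in the windows used for the E2F-type letters. CCAAT, the letters that the factor NF-Y is known to bind, was found in 20 of 41 replication genes with a window (48.8%), against 35.5% of tested genes and 75% of 20 mitosis genes. TTTGAA, the core of the element known as CHR in genes of late cell cycle phases, was found in 4 of the 41 (9.76%), against 10.4% of tested genes and 9 of 20 mitosis genes (45%). The E2F-type letters were in 1 of those 20 (5%) and in 13 of 36 further replication genes with a window (36.1%). These are descriptions without a test.

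The S phase score minus the mitosis score of the same tumor was -0.0043 in tumor 102, -0.495 in tumor 107 and -0.615 in tumor 116, and -1.06, -0.542 and -1.08 in tumors 157, 158 and 167. Tumor 102 thus had the smallest gap, and the ages overlapped, with tumor 158 between tumors 107 and 116.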
